A study of Mus musculus with 947 samples.

Results

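The 6 mature microRNAs (miRNAs) described here are mmu-miR-193b-3p, mmu-miR-365-3p, mmu-miR-378a-3p, mmu-miR-378a-5p, mmu-miR-455-3p and mmu-miR-455-5p. They were taken by name, as 6 of the 1076 miRNAs measured in the aging cohort and 6 of the 795 measured in the parabiosis cohort. Small noncoding RNA was sequenced in 768 libraries of 16 tissues from C57BL/6JN mice of the Tabula Muris Senis (TMS) aging cohort, at 1 month and then every 3 months from 3 to 27 months, where females end at 21 months. BAT is brown fat, and the white depots are SCAT under the skin, GAT at the gonads and MAT in the mesentery. The parabiosis cohort gave 176 libraries of GAT, MAT, heart, kidney, limb muscle and liver from male mice joined by surgery so that they share a circulation, and it holds no BAT. Isochronic young mice (IY) were 3 or 4.5 months old and were joined to each other. Heterochronic young mice (HY) were 4 months old and were joined to heterochronic aged mice (HA) of 19 months. Isochronic aged mice (IA) were also 19 months old. The study's sample table lists the IY, HA and IA mice as C57BL/6J, with IA pair 19 and HA mouse 20A as C57BL/6JN. Its reporting summary gives these 2 substrains the other way round, and which is right is not known here. The strain of the HY mice differed from that of the IY, HA and IA mice. Strain therefore cannot be told apart from the old partner in the comparison of HY with IY, nor from age in that of HA with HY. Values are in the reads-per-million-mapped unit (rpmm), and depths are in M (mega) reads.

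A miRNA guides the silencing of messenger RNAs that pair with its seed, which is bases 2 to 8 of the mature strand. Brown fat burns fuel to make heat in its many mitochondria, and white depots such as GAT mainly store lipid. The miR-193b and miR-365 pair is known as a brown fat cluster whose importance for brown fat formation has been disputed between knockdown and knockout studies. miR-378a is made from an intron of a gene for a coactivator of mitochondrial biogenesis and is known for roles in energy use in fat and muscle. miR-455 is known to favour brown adipocyte formation and, from its host gene, for cartilage.

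The sequences below are shown because the members come from loci whose products are alike, so that the 2 loci of miR-365 can be separated only by their 5p strands. Of the 6 members, 4 matched the RefSeq table (GRCm38.p6), and the capitals mark the seed.
mmu-miR-193b-3p: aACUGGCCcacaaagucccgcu
mmu-miR-193a-3p: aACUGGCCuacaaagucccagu
mmu-miR-365-3p: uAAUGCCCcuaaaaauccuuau
mmu-miR-365-1-5p: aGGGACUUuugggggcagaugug
mmu-miR-365-2-5p: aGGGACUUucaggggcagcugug
mmu-miR-455-3p: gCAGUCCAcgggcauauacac
mmu-miR-455-5p: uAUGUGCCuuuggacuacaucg

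The 4 printed members have 4 different seeds. mmu-miR-193b-3p shares its seed with mmu-miR-193a-3p and differs from it at 3 of 22 positions, all of them from position 9 on. Mir193b (chr16:13449523-13449601, plus strand) and Mir365-1 (chr16:13453840-13453926, plus strand) lie 4238 bases apart, within an intron of the antisense transcript Gm15738. Mir193a (chr11:79711969-79712034) and Mir365-2 (chr11:79726400-79726511) form a second such pair on the plus strand, 14365 bases apart, with no other gene over them. Both Mir365 loci give the same mmu-miR-365-3p sequence, so a read of it cannot be given to either. The mature strands of Mir455 (chr4:63256867-63256924, plus strand) lie in an intron of Col27a1, a collagen gene of cartilage. Reads of miR-378a and of its near-identical family members may be shared between them in the counting, and its values are uncertain to that extent.

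Tissue labels were checked against the tissue medians of miRNAs of known origin: mmu-miR-122-5p was highest in liver, mmu-miR-124-3p in brain, mmu-miR-206-3p in limb muscle, mmu-miR-208a-3p in heart and mmu-miR-205-5p in skin. By correlation with mean tissue profiles of all miRNAs, 11 aging libraries, of MAT, SCAT, bone, skin and pancreas, were closest to another tissue. In the parabiosis cohort 3 libraries of MAT were closest to GAT. All of these were kept in the main tests. Depth was inferred by taking the smallest value above 0 among the other RNAs of a library as 1 read. So estimated, it ran from 2.29 to 167 M mapped reads in the aging cohort and from 9.20 to 47.6 M in the parabiosis cohort. In 31 aging libraries of 8 tissues the median of 5 widely expressed miRNAs (let-7f-5p, let-7g-5p, let-7i-5p, miR-16-5p and miR-30e-5p) was under 0.25 of the tissue median. These are called low libraries. BAT holds 11 of them among its 31 libraries, and the parabiosis cohort holds 0. The low BAT libraries had 3.15 to 8.47 M mapped reads against 5.0 to 25.2 M in the other 20. They include both libraries at 3 months, the library at 6 months and 2 of the 3 at 9 months. BAT comparisons are therefore given with and without them. Each of the 6 members passed the filter on low values, at least 1 rpmm in a set share of libraries, in every tissue of both cohorts.

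All 6 members had their highest median in BAT. In BAT mmu-miR-193b-3p ranged from 191 to 2374 rpmm with a median of 712 (n = 31). The next tissues were SCAT with a median of 95.1 (n = 44), skin with 91.2 (n = 47) and GAT with 83.6 (n = 37), whose interquartile ranges overlap one another and not that of BAT. The lowest tissue was marrow, with a median of 1.98 (n = 56). mmu-miR-365-3p had a median of 1966 rpmm in BAT, 1259 in GAT and 937 in SCAT, and the interquartile ranges of these neighbours overlap. It was lowest in marrow, at 29.2.

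mmu-miR-378a-3p was the most abundant member. Its median was 89690 rpmm in BAT, 44790 in heart (n = 53) and 38590 in limb muscle (n = 47), followed by kidney at 13370 (n = 51). The interquartile range of BAT lies above that of heart, heart and limb muscle overlap, and both muscles lie above kidney. mmu-miR-378a-5p, the other strand of the same hairpin, followed the same order at 98.6, 41.8, 32.8 and 11.5 rpmm. Both were lowest in brain, at 1372 and 1.37 rpmm.

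mmu-miR-455-3p had a median of 113 rpmm in BAT, 63.9 in kidney and 50.5 in liver. mmu-miR-455-5p had 39.6 rpmm in BAT, 28.2 in liver and 26.2 in kidney. For both strands the interquartile ranges of BAT and the next tissue overlap when all libraries are used, and both were lowest in pancreas, at 3.13 and 1.21 rpmm. Over the 20 BAT libraries that are not low, the medians of the 6 members were 781, 2714, 87660, 114, 175 and 55.3 rpmm in the order given at the start. There the interquartile range of BAT lies above that of the next tissue for all 6.

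**Figure D1:**
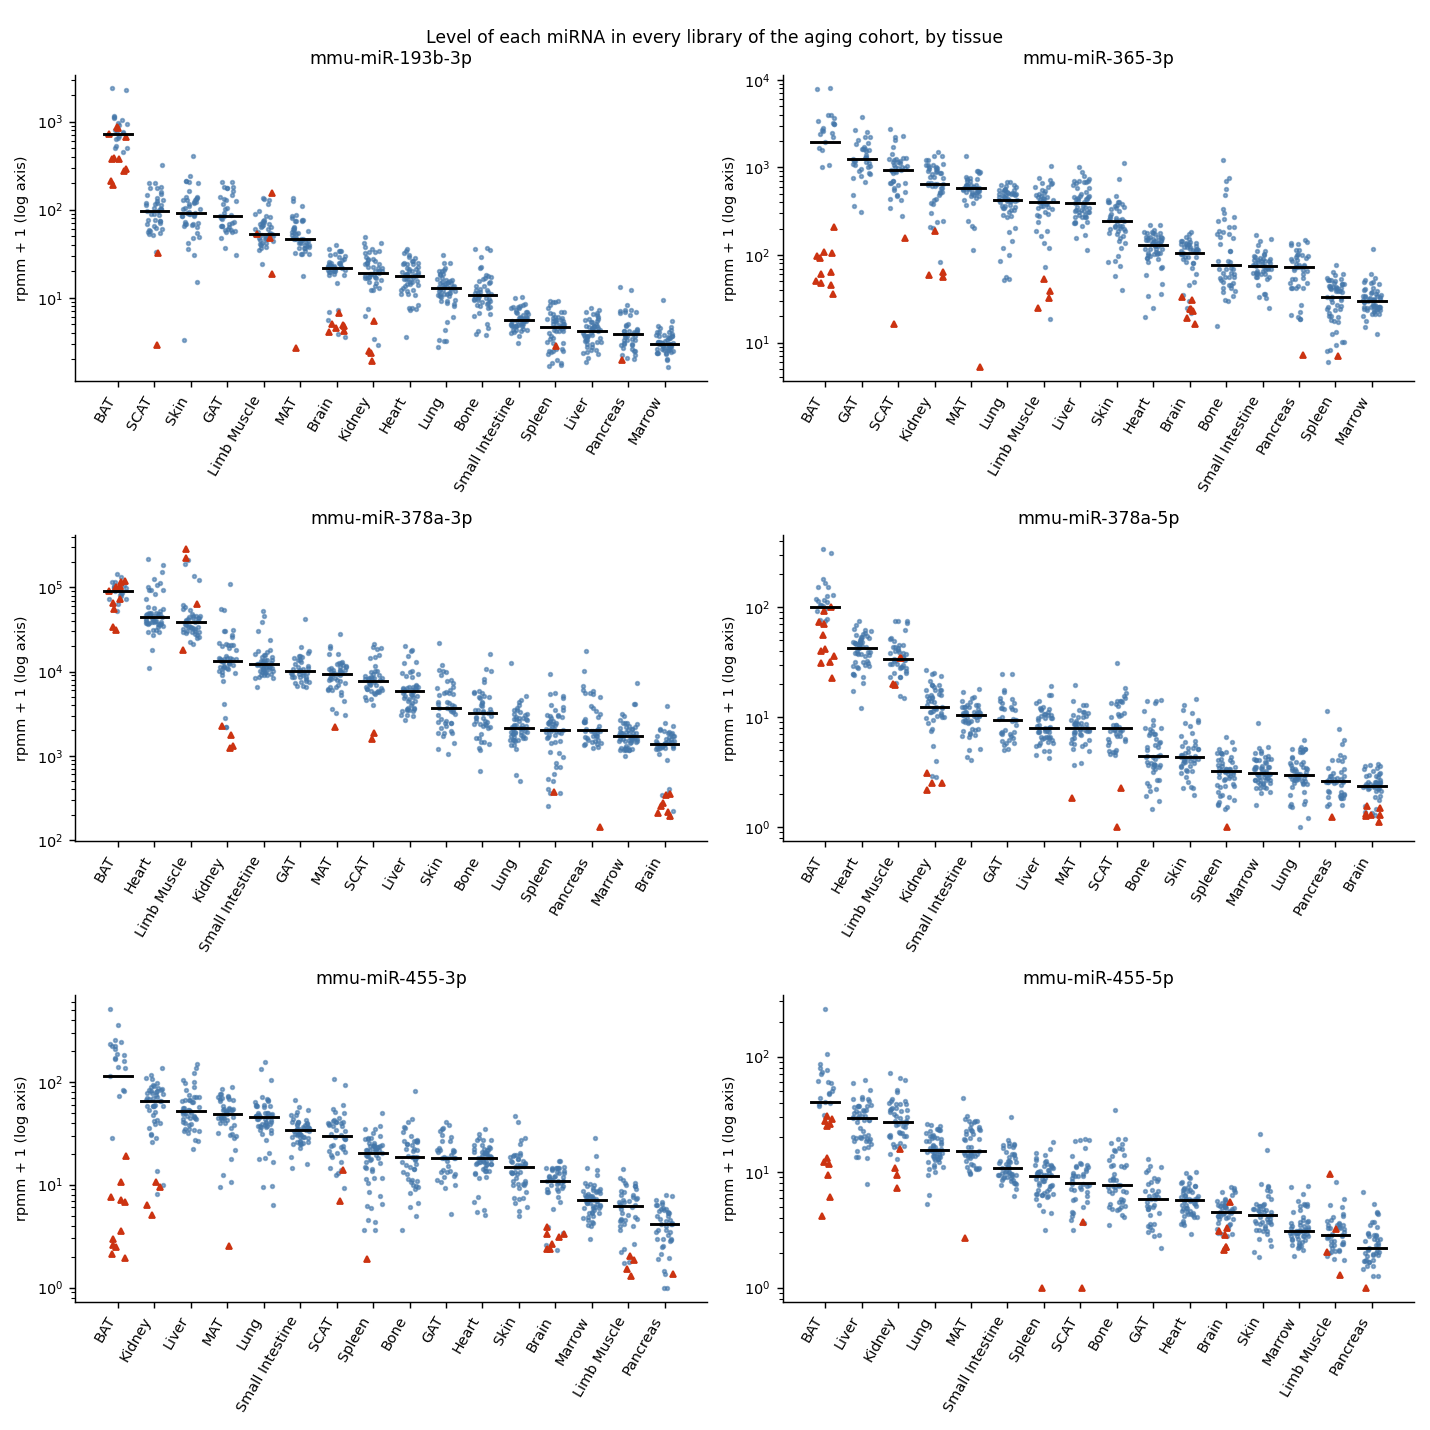
Level of each member in every aging library, as rpmm + 1 on a log axis, with tissues ordered by median (black bar); red triangles are the 31 low libraries and blue points the others. BAT comes first in all 6 panels, and its low libraries lie far under its other libraries for mmu-miR-365-3p and mmu-miR-455-3p but among them for mmu-miR-378a-3p.

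The members differed widely between low and other BAT libraries. mmu-miR-455-3p ran from 0.952 to 17.95 rpmm in the 11 low libraries and from 27.6 to 509 in the other 20, with medians of 2.56 and 175. This 68.5-fold difference in medians was the largest of the 242 miRNAs with a median of at least 10 rpmm in the other BAT libraries. mmu-miR-365-3p had medians of 62.1 and 2714 rpmm, 43.7-fold apart. The 2 ranges do not overlap for either miRNA. mmu-miR-455-5p differed 4.53-fold, mmu-miR-378a-5p 2.82-fold and mmu-miR-193b-3p 2.10-fold, against a median of 4.14-fold over the 242 miRNAs. mmu-miR-378a-3p had 91400 and 87660 rpmm, and it is 1 of 13 miRNAs that were higher in the low libraries. In the 4 low libraries of limb muscle mmu-miR-365-3p was 11.7-fold and mmu-miR-455-3p 7.72-fold lower in median, and mmu-miR-378a-3p was at 142500 against 36640 rpmm. In the 4 low libraries of kidney mmu-miR-378a-3p was at 1525 against 13970 rpmm, so it was lower there.

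BAT was next compared with the 3 white depots, heart and limb muscle by limma on log2(rpmm + 1), with age and sex in the model and Benjamini-Hochberg adjustment over all miRNAs tested. Differences are given on that log2 scale with their standard error. Without the low libraries, all 6 members were higher in BAT than in each of the 5 tissues, 30 of 30 comparisons. Among all miRNAs, 16.3% were called higher in BAT than in SCAT, 11.1% than in GAT, 18.4% than in MAT, 28.9% than in heart and 46.6% than in limb muscle. The median difference over all miRNAs was -0.36, -0.50, -0.49, -0.07 and 0.24 in that order, and over the members it was 3.17, 3.16, 2.85, 3.24 and 3.45. With all libraries, 24 of the 30 comparisons were called higher in BAT and 1 lower, where the shares of all miRNAs called higher were 10.1%, 9.06%, 12.8%, 19.2% and 25.8% in the same order. The lower call was mmu-miR-365-3p against GAT, at -1.01 (SE 0.46, adjusted p = 0.0379), where 78.7% of all miRNAs were called lower in BAT. In the libraries that are not low, mmu-miR-365-3p was higher in BAT than in GAT by 0.96 (SE 0.23, adjusted p = 3.01e-04), with means of 3125 and 1381 rpmm. The 5 comparisons without a call with all libraries were mmu-miR-365-3p against SCAT and MAT and mmu-miR-455-3p against all 3 white depots.

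The size of the difference depended on the tissue. With the low libraries left out, mmu-miR-193b-3p was 3.28 (SE 0.22) higher in BAT than in GAT, with means of 944 and 99.6 rpmm, and 5.56 (SE 0.18) higher than in heart, where its mean was 17.2. mmu-miR-378a-3p was 3.02 (SE 0.16) higher than in GAT and only 0.82 (SE 0.19) higher than in heart, with means of 92010 in BAT, 11750 in GAT and 58580 in heart. mmu-miR-455-3p was 3.03 (SE 0.23) higher than in GAT and 4.92 (SE 0.22) higher than in limb muscle, with means of 187.5, 19.1 and 5.53 rpmm. All of these had adjusted p of 1.35e-04 or less. mmu-miR-378a-5p was 3.76 (SE 0.21) higher than in GAT and 1.62 (SE 0.15) higher than in heart, in the same order as the other strand. With all libraries the differences from GAT were 2.82 (SE 0.22) for mmu-miR-193b-3p, 3.00 (SE 0.16) for mmu-miR-378a-3p, 3.20 (SE 0.21) for mmu-miR-378a-5p and 0.92 (SE 0.47, adjusted p = 0.0580) for mmu-miR-455-3p. Those from heart were 5.21 (SE 0.17) for mmu-miR-193b-3p, 0.75 (SE 0.17) for mmu-miR-378a-3p and 1.14 (SE 0.16) for mmu-miR-378a-5p, and that of mmu-miR-455-3p from limb muscle was 3.02 (SE 0.42).

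The products of the loci on chromosomes 11 and 16 did not go together in BAT. Against GAT and without the low libraries, mmu-miR-193b-5p was higher in BAT by 2.74 (SE 0.18, adjusted p = 2.17e-19), as mmu-miR-193b-3p was. mmu-miR-193a-3p, from chromosome 11, had means of 9981 rpmm in BAT and 10710 in GAT and a difference of 0.09 (SE 0.23, adjusted p = 0.740). mmu-miR-365-1-5p, the 5p strand of the locus on chromosome 16, was higher in BAT by 1.43 (SE 0.11, adjusted p = 5.12e-17), with means of 2.47 and 0.235 rpmm. mmu-miR-365-2-5p, the 5p strand of the locus on chromosome 11, was lower in BAT by -1.31 (SE 0.16, adjusted p = 4.70e-10), with means of 3.15 and 7.83 rpmm. With all libraries the 4 differences were 2.04, -0.30, 0.93 and -1.74 in this order, and mmu-miR-193a-3p was again the one without a call (adjusted p = 0.185).

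As shares, mmu-miR-365-1-5p made up a median of 46.1% of both miR-365 5p strands in BAT (n = 30), 29.5% in skin, 25.0% in brain and 21.1% in heart, and 5.77% in SCAT and 2.16% in GAT. The share is close in the 20 BAT libraries that are not low, at 45.9% with quartiles of 35.4% and 49.9%. In brain its quartiles were 0.0% and 42.9%, and in heart 0.0% and 34.6%. mmu-miR-365-1-5p and mmu-miR-365-2-5p had medians of 0.0515 and 0.174 rpmm in brain and 0.0598 and 0.180 in heart. The shares in brain and heart therefore rest on few reads. mmu-miR-365-1-5p was also low in skin, SCAT and GAT, with medians of 0.266, 0.256 and 0.179 rpmm. Few reads limit its shares and levels there too. The share of mmu-miR-193b-3p in the sum of mmu-miR-193a-3p and mmu-miR-193b-3p was led by the same tissues. It was 8.18% in BAT, 7.50% in skin, 6.55% in brain and 4.88% in heart, and 0.958% in GAT and 0.0629% in liver. The order of the other tissues differed: bone had 2.54% of this share and a median of 0.0% of the miR-365 share. The 5p strand of miR-193b had tissue medians from 0.0% to 8.90% of both its strands. The 5p strand was between 20.3% and 33.3% of miR-455 in the tissue medians, but it ran from 62.4% to 88.2% in the 11 low BAT libraries and from 10.2% to 56.7% in the other 20. The 5p strand of miR-378a had medians such as 0.112% in BAT and 0.0816% in heart.

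**Figure D2:**
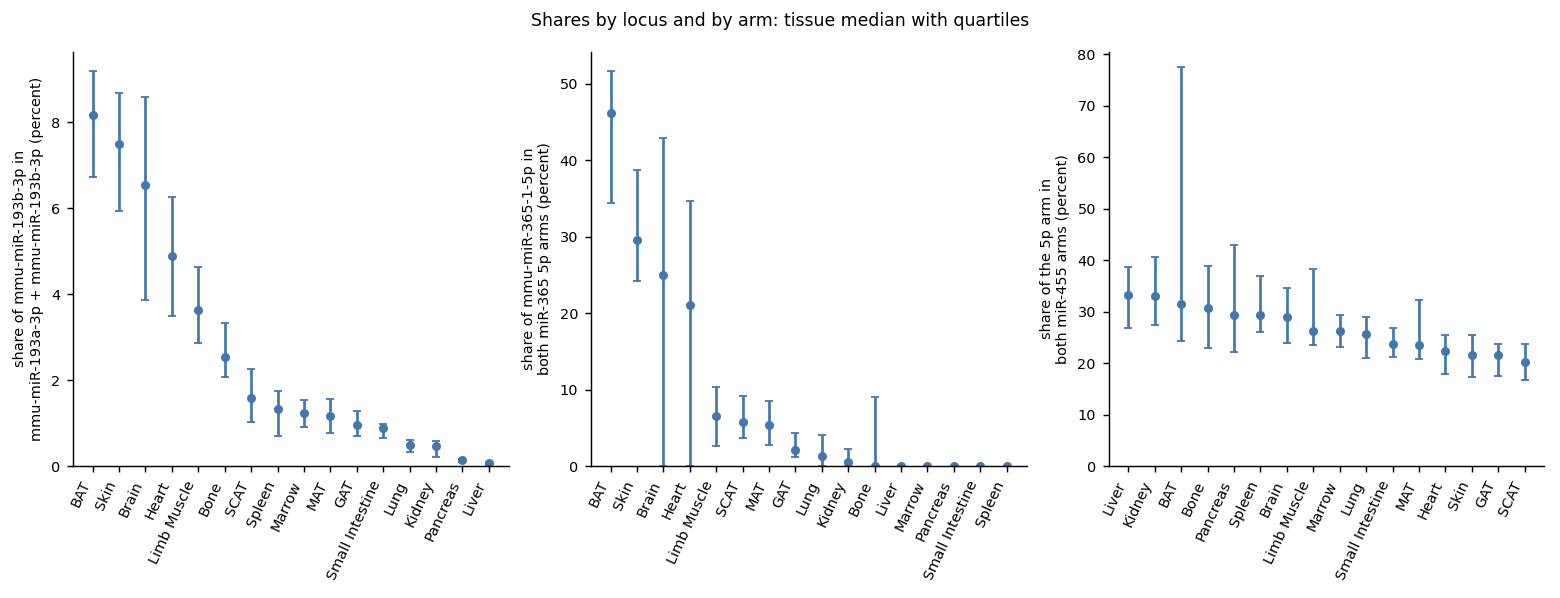
Share of mmu-miR-193b-3p in the sum with mmu-miR-193a-3p, share of mmu-miR-365-1-5p in both miR-365 5p strands, and share of the 5p strand in both miR-455 strands, in percent, as tissue median with quartiles over all aging libraries. BAT, skin, brain and heart lead both locus shares, but the miR-365 shares of skin, brain and heart rest on few reads. The miR-455 strand share stays between 20.3% and 33.3% in the medians, with a wide upper quartile in BAT at 77.5%.

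Over the 16 tissue means of log2(rpmm + 1) without low libraries, the miRNAs most like mmu-miR-193b-3p among 502 compared were mmu-miR-193b-5p (Pearson r = 0.95), mmu-miR-365-3p (0.81) and mmu-miR-10b-5p (0.73). Those most like mmu-miR-365-3p were mmu-miR-193a-5p (0.91), mmu-miR-193a-3p (0.89) and mmu-miR-193b-3p (0.81). For both strands of miR-378a they were the other strand, mmu-miR-378c and mmu-miR-378b, all at 0.96 or higher. For mmu-miR-455-3p they were mmu-miR-455-5p (0.97), mmu-miR-203b-3p (0.80) and mmu-miR-107-3p (0.76). These are descriptions over 16 points. Within tissues, across libraries that share their scaling and depth differences, mmu-miR-193b-3p and mmu-miR-365-3p had a median r of 0.65 over the tissues, and mmu-miR-193a-3p and mmu-miR-365-3p had 0.14. mmu-miR-365-3p and mmu-miR-455-3p, which share no locus, had a median of 0.72 and were above 0.5 in 14 of the 16 tissues.

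Other miRNAs linked to brown fat were compared between BAT and the same tissues. Among 9 described as promoting brown fat, without low libraries, 3 were higher in BAT than in GAT, 2 were lower, and the median difference was 0.03 against -0.50 over all 631 miRNAs. mmu-miR-182-5p had means of 280.6 rpmm in BAT and 5.95 in GAT, a difference of 5.03 (SE 0.19, adjusted p = 9.03e-30). mmu-miR-196a-5p, known for promoting browning of white fat, went the other way, with 2.67 and 533 rpmm (-5.01, SE 0.41, adjusted p = 6.35e-16). Against SCAT, MAT and heart 4 of the 9 were higher in BAT and 3 lower, and against limb muscle 6 were higher and 1 lower. Of all miRNAs, 70 were higher and 378 lower in BAT than in GAT, of 631 tested. Against SCAT 100 were higher and 340 lower of 613, and against MAT 114 and 382 of 619. Against heart 172 were higher and 217 lower of 596, and against limb muscle 283 and 126 of 607. Among 10 described as opposing brown fat, 0 were higher in BAT than in GAT and 7 were lower, with a median of -0.85. An example is mmu-miR-34a-5p, a miRNA known to rise in obesity, with means of 554 rpmm in BAT and 2030 in GAT (-1.95, SE 0.23, adjusted p = 1.25e-10). Of 7 linked to mitochondria or oxidative muscle, 0 were higher and 3 lower in BAT than in GAT. These include mmu-miR-210-3p, a hypoxia-induced miRNA, with 18.5 and 32.1 rpmm (-0.80, SE 0.15, adjusted p = 2.84e-06). With all libraries, 57 of 629 miRNAs were higher in BAT than in GAT and 495 lower, with a median of -0.88. Of the promoting list 1 was higher and 7 lower (median -1.14). Of the opposing list 0 were higher and 8 lower (median -2.06), and of the mitochondrial list 0 were higher and 4 lower (median -0.39). The named differences were then 4.21 for mmu-miR-182-5p, -5.46 for mmu-miR-196a-5p, -2.59 for mmu-miR-34a-5p and -1.20 for mmu-miR-210-3p.

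The study asked how noncoding RNA changes over the life of the mouse. The relation with age was taken in each tissue as Spearman's rho across its libraries and called beyond 0.5 in size. Among the 96 combinations of member and tissue, 7 were called, and over all miRNAs and tissues 8.07% were called. In BAT mmu-miR-365-3p, mmu-miR-455-3p and mmu-miR-455-5p rose with age, where 15.2% of miRNAs rose and the median rho was 0.39. In bone both strands of miR-378a rose, where 6.38% of miRNAs did. mmu-miR-455-5p fell in limb muscle, where 16.5% fell, and in SCAT, where 11.2% fell.

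mmu-miR-455-3p in BAT was at 27.6 rpmm in the library at 1 month, at 5.76 and 0.952 at 3 months, at 1.12 at 6 months and at 170, 6.08 and 1.61 at 9 months. At 27 months the 4 libraries were at 219.5, 355, 221 and 233 rpmm. The low values at 3 and 6 months are all low libraries, and no library at 27 months is low. Its rho was 0.621 (permutation p = 0.00028, adjusted p = 0.0245, n = 31) and its Pearson r was 0.540 (permutation p = 0.00183), with r = 0.542 when the 2 libraries farthest from the median age were left out. Where more libraries were equally far, here and below, the first listed were taken, so an equally old or young library can remain. Without the low libraries rho was 0.675 (permutation p = 0.00146, adjusted p = 0.0664, n = 20), where 17.8% of miRNAs rose, and r was 0.484 without the farthest 2. Removing the means of the plates named in the deposited annotation gave 0.492. Removing those of sets of 12 title numbers gave 0.657, and males alone gave 0.580.

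mmu-miR-455-5p in BAT was at 27.8 and 3.17 rpmm at 3 months and at 85.5, 257.5, 69.4 and 71.8 at 27 months. Its rho was 0.570 (permutation p = 0.00104, adjusted p = 0.0263, n = 31) and its r was 0.560 (permutation p = 0.00085), with 0.635 without the farthest 2. In the 20 other libraries rho was 0.592 (permutation p = 0.00632, adjusted p = 0.0826), and within plates it was 0.403. mmu-miR-365-3p was at 205 and 46.9 rpmm at 3 months and at 3959, 7766, 3926 and 3121 at 27 months. Its rho was 0.506 (permutation p = 0.00398, adjusted p = 0.0285) and its r was 0.416 (permutation p = 0.0213), with 0.474 without the farthest 2. Over the 20 other libraries rho was 0.627 (permutation p = 0.00375, adjusted p = 0.0737), and within plates it was 0.519. mmu-miR-193b-3p, mmu-miR-378a-5p and mmu-miR-378a-3p had rho of 0.318, 0.395 and 0.125, under the threshold, and 0.320, 0.338 and 0.352 without the low libraries.

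The 3 rises in BAT rest on the oldest libraries: without 24 and 27 months rho was 0.430, 0.375 and 0.271 for mmu-miR-455-3p, mmu-miR-455-5p and mmu-miR-365-3p. Scaling to miRNA reads left only mmu-miR-455-3p over the threshold, at 0.524, with 0.381 for mmu-miR-455-5p and 0.361 for mmu-miR-365-3p. Median-ratio scaling did the same, with 0.5395, 0.338 and 0.395 in this order. In males alone mmu-miR-455-5p was at 0.582 and mmu-miR-365-3p at 0.486, under the threshold. Sums of markers of some other cells also rose with age in BAT. The summed level of 5 striated muscle miRNAs had a rho of 0.533 without the low libraries, ran from 1199 to 28940 rpmm at 27 months, and had a Pearson r of 0.74 with mmu-miR-455-3p and 0.72 with mmu-miR-365-3p. The sums of 4 white blood cell miRNAs and 3 vessel miRNAs had rho of 0.558 and 0.522 there. In the same libraries the median rho over all miRNAs was 0.31. Of the single markers of these cells, only mmu-miR-133a-3p, mmu-miR-142a-5p and mmu-miR-126a-3p were over 0.5. Their rho was 0.571, 0.521 and 0.580, with adjusted permutation p from 0.0829 to 0.124. The part of these cells in the rises was not tested. In tissue RNA, more cells of a type and more RNA per cell cannot be told apart.

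**Figure D3:**
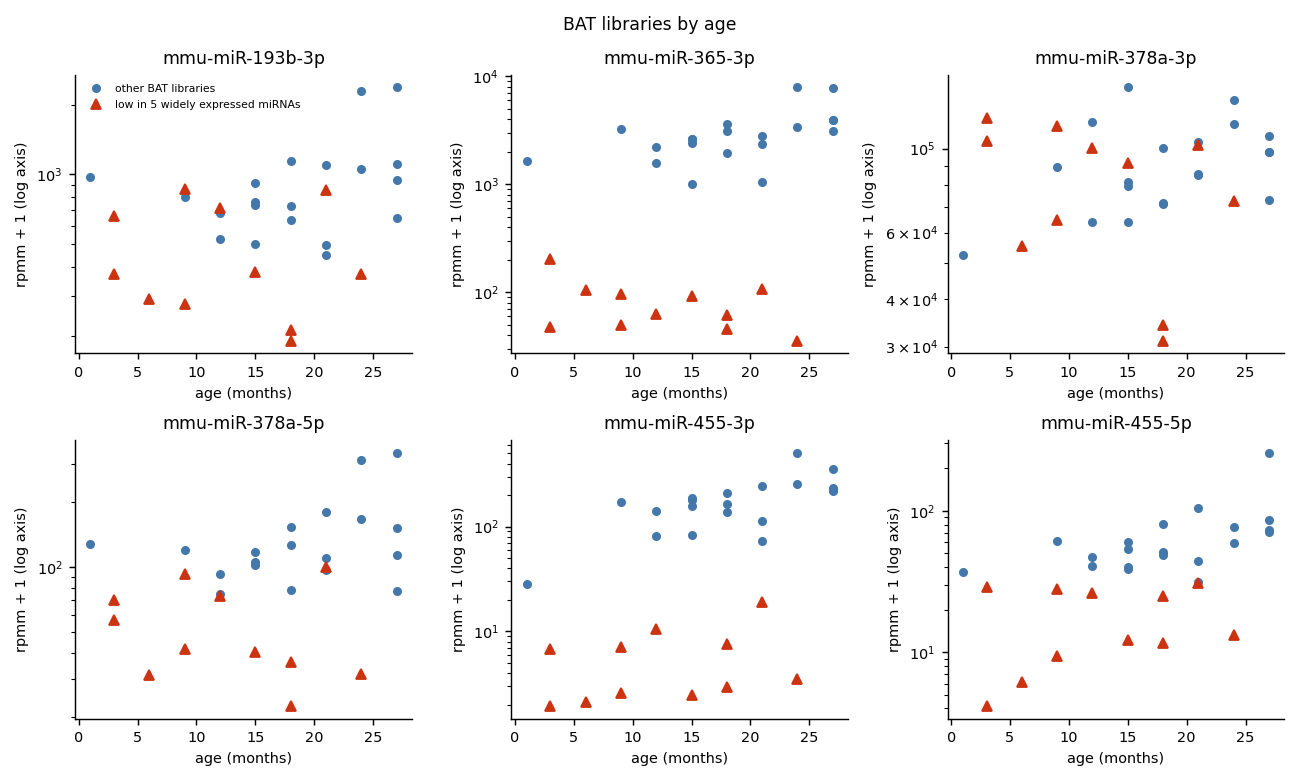
Each of the 31 BAT libraries by age in months, as rpmm + 1 on a log axis; red triangles are the 11 low libraries and blue points the other 20. The 4 libraries at 27 months are all blue and stand near the top for mmu-miR-365-3p and the strands of miR-455, both libraries at 3 months are red, and mmu-miR-378a-3p shows no such split.

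miR-455 went the opposite way in SCAT and limb muscle. In SCAT the median of mmu-miR-455-5p was 13.6 rpmm at 6 months (n = 4), 8.23 at 18 months (n = 6) and 3.13 at 27 months (n = 3), where the 3 libraries were at 2.14, 3.13 and 3.38. Its rho was -0.599 (permutation p = 0.00002, adjusted p = 4.89e-04, n = 44) and its r was -0.456 (permutation p = 0.00156), with -0.429 without the farthest 2, and within plates rho was -0.553. Without the 2 low libraries of SCAT, mmu-miR-455-5p had a rho of -0.685 and mmu-miR-455-3p of -0.547, where 17.2% of miRNAs fell. In limb muscle the median of mmu-miR-455-5p was 3.74 rpmm at 1 month, 2.55 at 3 months and 1.41 at 27 months. Its rho was -0.620 (permutation p = 0.00002, adjusted p = 1.61e-04, n = 47) and its r was -0.553 (permutation p = 0.00003), with -0.542 without the farthest 2, and within plates rho was -0.627. These levels are low, since 1 rpmm stands for about 17.5 reads at the median depth of limb muscle, 17.5 M. mmu-miR-455-3p had a rho of -0.378 in limb muscle, under the threshold.

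The difference in slope was tested itself, by limma with tissue, age in months and their product. The slope of mmu-miR-455-3p was 0.19 (SE 0.04) per month on the log2 scale in BAT and -0.06 (SE 0.03) in SCAT, a difference of 0.25 (SE 0.05, adjusted p = 1.21e-04). That of mmu-miR-455-5p was 0.09 (SE 0.02) in BAT and -0.05 (SE 0.02) in SCAT, a difference of 0.14 (SE 0.03, adjusted p = 1.49e-04). With the low libraries left out, the 2 differences were 0.15 (SE 0.02, adjusted p = 5.17e-06) and 0.12 (SE 0.02, adjusted p = 1.96e-05). Against limb muscle they were 0.23 (SE 0.05) and 0.13 (SE 0.02) with all libraries, and 0.13 (SE 0.03) and 0.09 (SE 0.02) without the low ones, all with adjusted p of 1.88e-04 or less. Slopes differed for many miRNAs: 42.6% of all tested between BAT and SCAT and 55.1% between BAT and limb muscle, or 31.6% and 36.1% without the low libraries. The median difference was 0.04 and 0.05 per month with all libraries, 0.0054 and 0.0018 under median-ratio scaling, and both strands of miR-455 were called under that scaling too. In limb muscle the 2 fibroblast miRNAs also fell with age, with a rho of -0.566 for their sum and a Pearson r of 0.53 with mmu-miR-455-5p, and in SCAT 4 white blood cell miRNAs fell (rho of -0.506, both without low libraries). Across SCAT libraries that are not low, the skin markers had a Pearson r of 0.59 with mmu-miR-455-3p and 0.36 with mmu-miR-455-5p. For fibroblast markers it was 0.43 and 0.35, for epithelial ones 0.27 and 0.19, and for striated muscle ones -0.05 and -0.08. The part of such cells in the falls was not tested.

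In bone the median of mmu-miR-378a-3p was 1544 rpmm at 1 month (n = 6), 2473 at 3 months (n = 6), 5541 at 21 months (n = 5) and 3370 at 27 months (n = 4). Its rho was 0.559 (permutation p = 0.00006, adjusted p = 0.00152, n = 48) and its r was 0.593 (permutation p = 0.00006), with 0.582 without the farthest 2. mmu-miR-378a-5p had a rho of 0.551 (permutation p = 0.00011, adjusted p = 0.00217) and an r of 0.542 (permutation p = 0.00008), with 0.540 without the farthest 2. Within plates the 2 rho were 0.546 and 0.579. Without the libraries at 1 month they were 0.478 and 0.435, and scaled to miRNA reads 0.410 and 0.428, all under the threshold. The summed level of the 5 striated muscle miRNAs rose in bone as well, with a rho of 0.595, from 5703 to 20920 rpmm at 3 months to 19570 to 110600 at 27 months. It had a Pearson r of 0.63 with mmu-miR-378a-3p and 0.75 with mmu-miR-378a-5p. The part of muscle RNA was not tested.

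**Figure D4:**
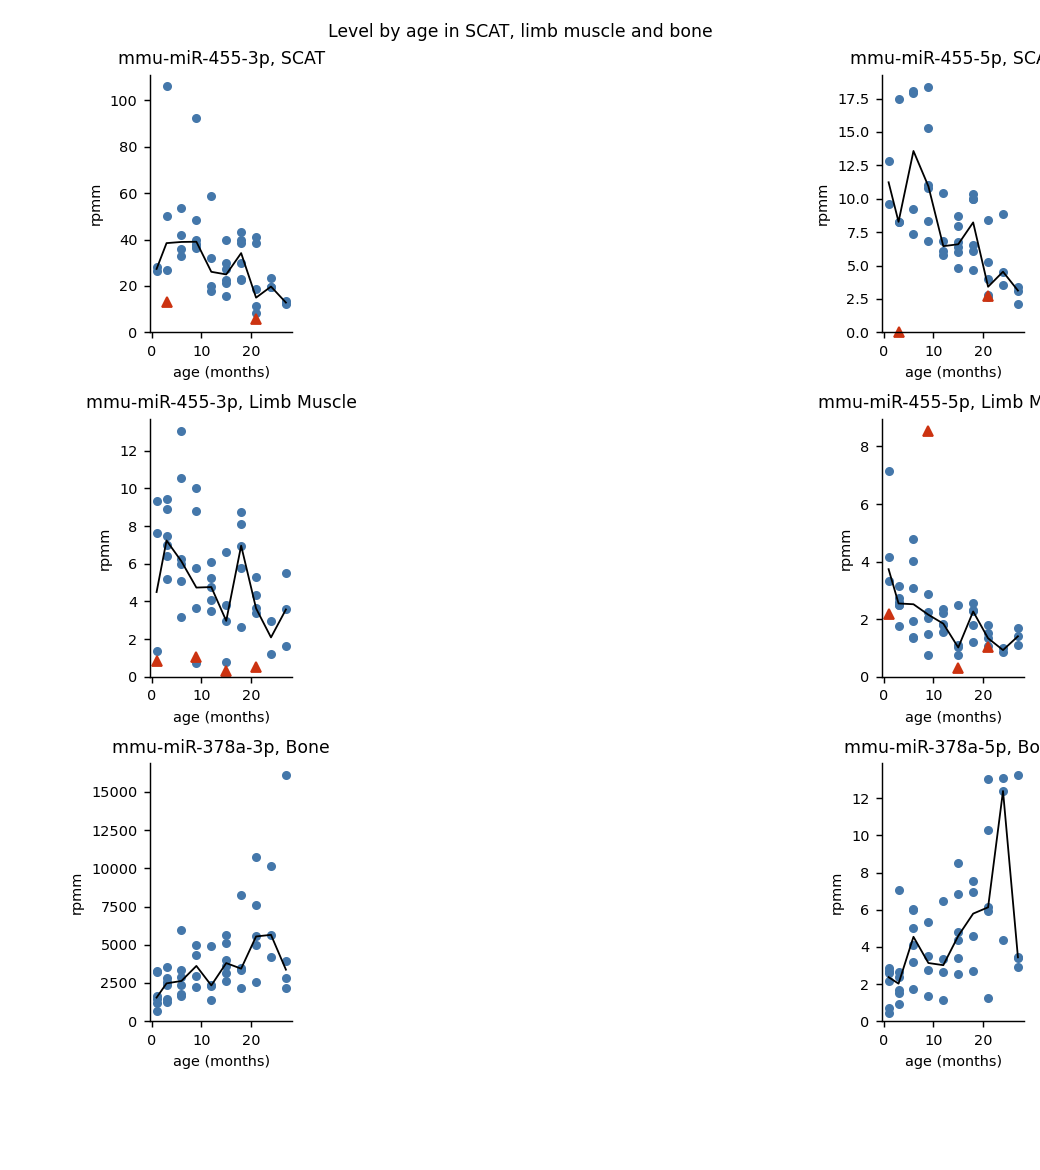
Level in rpmm by age in months for mmu-miR-455-3p and mmu-miR-455-5p in SCAT and limb muscle and for both strands of miR-378a in bone; points are libraries, red triangles low libraries and the line joins the medians of all libraries at each age. mmu-miR-455-5p declines in SCAT to a median of 3.13 rpmm at 27 months and in limb muscle to 1.41. In bone mmu-miR-378a-3p climbs to 5541 at 21 months and is lower again at 27 months.

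Each age was also compared with 3 months by limma in the 15 tissues with at least 3 libraries at 3 months, which leaves out BAT. Of 768 comparisons of the members, 13 were called, against 2.67% of all comparisons. At 21 months, 3 were called, all in the small intestine, where 3.87% of miRNAs over all tissues and 12.5% in the small intestine (higher) were called. mmu-miR-455-3p in the small intestine was at 13.5, 14.9, 23.7, 24.1 and 25.2 rpmm at 3 months and at 21.6, 27.8, 36.8, 37.02, 49.7 and 65.1 at 21 months. Only the lowest value at 21 months lies within the range at 3 months. The difference was 0.89 (SE 0.23, adjusted p = 0.00918), and it stayed called when any 1 library was left out. mmu-miR-455-5p had means of 16.1 and 8.43 rpmm (0.80, SE 0.25, adjusted p = 0.0298) and mmu-miR-193b-3p had 6.13 and 3.60 (0.62, SE 0.22, adjusted p = 0.0493). These 2 calls were lost without some single libraries, with adjusted p of up to 0.120 and 0.202. In males alone and under median-ratio scaling none of the 3 was called, with adjusted p from 0.0716 to 0.289. At 18 months mmu-miR-455-3p was higher too, with a mean of 37.5 rpmm (0.86, SE 0.23, adjusted p = 0.0440), where 1.66% of miRNAs were. That call was lost in males, with no filter, with edgeR and under both other scalings, with adjusted p from 0.0645 to 0.424.

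The other calls against 3 months were scattered. In liver at 27 months, where 28.5% of miRNAs were higher, mmu-miR-365-3p had means of 618 and 248 rpmm (1.21, SE 0.41, adjusted p = 0.0230) and mmu-miR-193b-3p of 4.61 and 2.03 (0.92, SE 0.31, adjusted p = 0.0222). With edgeR, median-ratio or miRNA-read scaling neither was called, at 0.41 to 0.54 for mmu-miR-365-3p and 0.37 to 0.44 for mmu-miR-193b-3p, with adjusted p from 0.457 to 0.596. In limb muscle at 15 months mmu-miR-378a-5p, mmu-miR-455-3p and mmu-miR-455-5p were lower, as were 22.2% of miRNAs. There mmu-miR-455-3p had means of 2.90 and 7.41 rpmm (-1.37, SE 0.47, adjusted p = 0.0295). Without the low libraries mmu-miR-378a-5p was called there and the strands of miR-455 were not. None of the 3 was called with edgeR, under median-ratio scaling or with the plate in the model, with adjusted p from 0.0830 to 0.508. In skin mmu-miR-378a-5p was lower at 15 months (mean of 2.54 against 7.15 rpmm) and at 18 months (2.69), where 17.3% and 15.3% of miRNAs were lower. Both calls were lost with edgeR, under both other scalings and with the set of title numbers in the model, with adjusted p from 0.0654 to 0.352. In MAT at 1 month, where 9.14% were lower, mmu-miR-193b-3p and mmu-miR-365-3p were called lower. There mmu-miR-193b-3p was at 30.6, 33.4 and 1.70 rpmm, and the last of these is the 1 low library of MAT, without which 2 libraries were left and no test was made. With edgeR, scaled to miRNA reads or with the plate in the model neither was called, with adjusted p from 0.0858 to 0.471.

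Leaving out the low libraries gave 24 calls in place of 13, against 4.32% of all comparisons. Of these, 9 were falls in SCAT, including 4 at 27 months, where the share of all miRNAs called lower was 22.1%. There mmu-miR-193b-3p was at 31.9, 50.1 and 58.9 rpmm at 27 months and at 100.6, 112.2 and 320.1 at 3 months (-1.73, SE 0.48, adjusted p = 0.00840). The ranges do not overlap. mmu-miR-455-3p had means of 12.8 and 61.0 rpmm there (-1.95, SE 0.47, adjusted p = 0.00261), mmu-miR-455-5p of 2.88 and 11.3 (-1.60, SE 0.38, adjusted p = 0.00246) and mmu-miR-378a-5p of 4.80 and 17.9 (-1.57, SE 0.45, adjusted p = 0.0111).

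Sexes were compared up to 21 months with age in the model. Of 96 comparisons, 3 were called, against 4.45% of all miRNAs. In GAT both strands of miR-455 were higher in females, as were 5.43% of miRNAs. mmu-miR-455-3p ranged from 16.1 to 37.2 rpmm with a median of 21.9 in females (n = 13) and from 4.20 to 40 with a median of 13.5 in males (n = 20). The difference was 0.70 (SE 0.23, adjusted p = 0.0460). mmu-miR-455-5p had medians of 6.05 and 4.05 rpmm (0.73, SE 0.20, adjusted p = 0.0164). In liver mmu-miR-455-5p was lower in females, with medians of 18.6 and 29.5 rpmm (-0.59, SE 0.17, adjusted p = 0.0224), where 4.99% of miRNAs were lower. The ranges of the sexes overlap in each case. With the plate in the model 2 of these were not called: mmu-miR-455-5p in liver was at -0.34 (adjusted p = 0.620) and mmu-miR-455-3p in GAT at 0.76 (adjusted p = 0.0569). The opposite signs in GAT and liver were not tested against each other.

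In the parabiosis cohort the question was whether a partner of another age moves a tissue toward that partner. With all mice, no member was called between HA and IA mice or between HY and IY mice, in 36 comparisons each. Of all miRNAs, 0.965% and 0% were called by limma, and edgeR called 0 members in either. Without the mice listed as C57BL/6JN, 3 of the 36 comparisons of HA with IA were called, 1 higher and 2 lower in HA. The absence of calls between HA and IA therefore depends on which mice are kept. The share of all miRNAs called without these mice is not given here, so the 3 calls are not read further. The study itself called HA against IA and HY against IY at a ratio of means beyond 3/2 or under 2/3 with p under 0.05. At these thresholds, with an unadjusted p, 8 and 1 member comparisons pass here. The share of all miRNAs that pass this rule is not given here, so these counts are not read as a result on the members. Members were called between aged and young mice with partners of their own age (IA against IY, 3 of 36, with 8.13% of all miRNAs called) and with partners of the other age (HA against HY, 4 of 36, with 9.81%). These comparisons of HA, IA, HY and IY share mice.

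All 4 calls between HA and HY mice were falls in the kidney, where 8.94% of miRNAs were lower. Strain differs between these groups as age does. mmu-miR-455-3p in HA kidneys ran from 12.2 to 61.1 rpmm with a median of 37.9 (n = 6), and in HY kidneys from 47.6 to 138.4 with a median of 72.2 (n = 7). The groups overlap between 47.6 and 61.1 rpmm. The difference was -1.14 (SE 0.26, adjusted p = 0.00160), and it was called without any 1 library. mmu-miR-455-5p ran from 8.14 to 31.4 rpmm in HA and from 25.6 to 69.8 in HY kidneys (-1.03, SE 0.30, adjusted p = 0.0113), also with every single library left out. mmu-miR-365-3p had medians of 637 and 995 rpmm (-0.86, SE 0.26, adjusted p = 0.0152), and the call was lost without HA mouse 14A (adjusted p = 0.0601), which was at 222 rpmm. mmu-miR-378a-3p had medians of 7732 and 12020 rpmm (-0.57, SE 0.18, adjusted p = 0.0227), and the call was lost without HA mouse 11A, 12A or 1A, with adjusted p of up to 0.0726.

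In kidneys of isochronic mice the same 4 members were lower in IA than in IY mice by -0.30 (mmu-miR-455-3p), -0.21 (mmu-miR-455-5p), -0.15 (mmu-miR-365-3p) and -0.19 (mmu-miR-378a-3p), with adjusted p from 0.501 to 0.812. The 2 age differences were compared in the same model, and for mmu-miR-455-3p they differed by -0.84 (SE 0.35, adjusted p = 0.320), which is no call. The 2 fibroblast miRNAs summed to 5332 to 8513 rpmm in HA and 3075 to 4137 in HY kidneys, and the 3 gut miRNAs, which kidney also expresses, to 8133 to 15740 and 13490 to 21460. The 4 white blood cell miRNAs summed to 1077 to 2817 rpmm in HA and 579 to 1127 in HY kidneys. The 3 pancreas miRNAs had median sums of 299.7 and 109.4 rpmm. The part of such cell composition in the falls was not tested. Of the 6 relatives from the same loci and families tested there, 2 were lower and 0 higher, and the median difference of all 537 miRNAs was -0.03.

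In the heart mmu-miR-193b-3p was higher in IA than in IY mice, as were 9.69% of miRNAs. It ran from 22.3 to 48.9 rpmm with a median of 32.95 in IA (n = 8) and from 13.2 to 31.1 with a median of 19.5 in IY (n = 8). The difference was 0.72 (SE 0.19, adjusted p = 0.0125) and was called without any 1 library. It was 0.59 (adjusted p = 0.0588) with the pool number of the library in the model and 0.84 (adjusted p = 0.0885) without the IY mice of 3 months. Between HA and HY hearts it was -0.25 (SE 0.20, adjusted p = 0.454). The 2 age differences differed by -0.96 (SE 0.27, adjusted p = 0.0422), where 3.49% of miRNAs in the heart were called. That call was lost in 10 of 16 refits that left out 1 IA or IY library, with adjusted p of up to 0.0795. It was also lost with the pool in the model (-0.83, adjusted p = 0.0973), with no filter (adjusted p = 0.0623) and without the IY mice of 3 months (-1.09, adjusted p = 0.130).

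In limb muscle both strands of miR-455 were lower in IA than in IY mice, where 12.7% of miRNAs were lower. mmu-miR-455-5p was between 0.961 and 2.12 rpmm with a median of 1.22 in IA (n = 8) and between 1.95 and 3.41 with a median of 2.35 in IY (n = 8), so the groups overlap only between 1.95 and 2.12. The difference was -0.58 (SE 0.15, adjusted p = 0.00546) and was called without any 1 library. mmu-miR-455-3p had medians of 3.59 and 6.43 rpmm (-0.62, SE 0.20, adjusted p = 0.0293). That call was lost when any 1 of 7 libraries was left out (IA mice 6B, 7A, 7B and 9B and IY mice 15B, 16A and 16B), with adjusted p of up to 0.0819. Without the IY mice of 3 months neither was called, at -0.52 (adjusted p = 0.129) for mmu-miR-455-5p and -0.43 (adjusted p = 0.630) for mmu-miR-455-3p. Between HA and HY mice the differences were -0.01 (SE 0.16) and -0.40 (SE 0.21), with adjusted p of 0.991 and 0.263. The direction in isochronic muscle is that of the aging cohort, with the fibroblast miRNAs at 1959 to 3173 rpmm in IA and 2607 to 4246 in IY muscle. Their part was not tested.

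**Figure D5:**
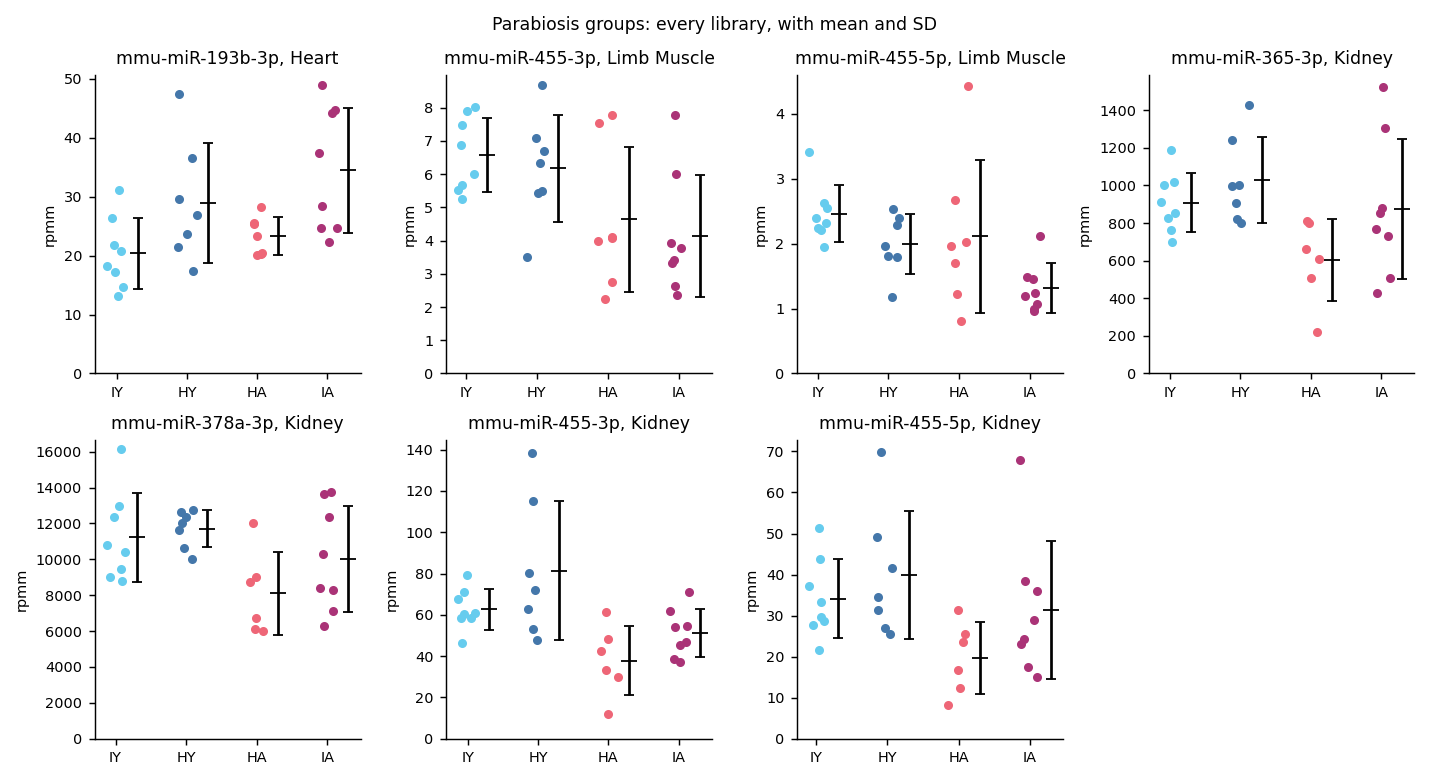
Level in rpmm of every parabiosis library for the combinations of member and tissue that were called between groups; points are mice in the order IY, HY, HA and IA, and the black bar with whiskers is the mean with SD. HA kidneys lie lowest for mmu-miR-455-3p, with a median of 37.9 rpmm, IA hearts highest for mmu-miR-193b-3p, with 32.95, and IA limb muscle lowest for mmu-miR-455-5p, with 1.22.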

How the data were processed

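The deposited values are a signal (rpmm, reads-per-million-mapped) that the authors made from single-end small RNA reads with miRMaster and Bowtie against miRBase and other RNA databases, allowing 1 mismatch and keeping the first of identical paralogs. The labels name mm10. Values were whole multiples of 1 read for 99.0% of miRNA values of the aging mice and 98.8% of those of the parabiosis mice (tolerance of 0.05 reads, values up to 1000 reads), and reads recovered in this way were used for edgeR as an alternative. Another 3 aging columns matched no label and were not used.

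miRNAs with at least 1 rpmm in at least 10% of a tissue's libraries were tested. Differences were tested by limma on log2(rpmm + 1) per tissue with Benjamini-Hochberg adjustment, called at an adjusted p under 0.05. Correlations with age used 100000 shuffles of age. The age slopes and the test of 2 age differences against each other were added after the data were seen, as was leaving out the low libraries. Scripts were tested on simulated data. Versions were R 4.3.3, limma 3.58.1, edgeR 4.0.16, Python 3.11.15 and scipy 1.17.1. The 6 members were described whatever their values, with fixed lists of relatives, brown fat and mitochondrial miRNAs and cell markers. Members and lists were chosen with earlier results of these data known. The labels do not tie aging libraries of different tissues to the same mouse, and p-values measure the spread between libraries. The strain name of the HY mice is not reported here.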

Additional observations from a re-analysis of the deposited data

Results flagged for a closer look

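Of 36 groups of 4 to 10 libraries behind called results, 2 held a library far from the others, where chance gives about 1 in 20. mmu-miR-193b-3p in MAT at 3 months was at 124.6 rpmm in its highest library, against a median of 37.3 in the other 4. mmu-miR-365-3p in HA kidneys was at 222.4 rpmm in mouse 14A, against a median of 662.5 in the others.

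Age differences that differed by a test of the difference itself were those of mmu-miR-193b-3p in the heart, where HA minus HY lay -0.96 from IA minus IY on the log2 scale, and 7 age slopes in BAT. The call in the heart was lost in 10 of 16 refits that left out 1 IA or IY library. It was also lost with the pool in the model (adjusted p = 0.0973), and strain differs between HA and HY mice. Against SCAT the slopes per month differed by 0.25 for mmu-miR-455-3p, 0.14 for mmu-miR-455-5p and 0.0691 for mmu-miR-378a-5p. Against limb muscle they differed by 0.23 for mmu-miR-455-3p, 0.13 for mmu-miR-455-5p, 0.14 for mmu-miR-365-3p and 0.0612 for mmu-miR-378a-5p. Without the low libraries the difference of mmu-miR-365-3p was 0.05 and was not called. Both differences of mmu-miR-378a-5p changed sign with median-ratio scaling, to -0.0155 against limb muscle and -0.0005 against SCAT. Among all miRNAs tested, the slope difference was called for 42.6% against SCAT and 55.1% against limb muscle.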

How the results depend on the processing

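Counts of called members moved with the following settings, and the cause was not tested. Shares of all miRNAs under these settings are not given beside them, so the counts show only how the calls depend on the rule. For every age against 3 months, 13 calls became 7 with a mean of at least 10 rpmm, 6 with no filter, 20 with the plate in the model, 94 with a ratio of means and an unadjusted p, and 24 without the low libraries. For 21 against 3 months, 3 became 5 with edgeR, 0 in males, 6 with miRNA-read scaling, 15 with the ratio rule, 6 without libraries closest to another tissue, 7 without the low libraries, and 1 to 4 with 1 library left out. For sex, 3 became 9 with median-ratio scaling, 6 with miRNA-read scaling, 7 with the ratio rule and 5 without the low libraries. For HA against IA, 0 became 8 with the ratio rule and 3 without IA pair 19 and HA mouse 20A, and for HY against IY 0 became 1 with the ratio rule. For IA against IY, 3 became 1 with a mean of at least 10 rpmm, 8 with the ratio rule, 0 without the IY mice of 3 months, and 2 to 4 with 1 library left out. For HA against HY, 4 became 3 to 5 with 1 library left out. For the age correlation, 7 became 13 by adjusted p and 4 without 24 and 27 months.

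With the parabiotic pair as a replicate block, IA against IY had 5 calls, HA against HY 5, and HA against IA and HY against IY 0, and mmu-miR-455-3p in limb muscle had an adjusted p of 0.0557. The pair number was shared by mice whose deviations were not correlated throughout, with a correlation over 0.1 in 2 of 12 pairs in MAT and 10 of 15 in liver. BAT against other tissues kept 25 calls with the title number as block.

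mmu-miR-365-3p in BAT against GAT changed sign, to 0.85 with edgeR, 0.33 with median-ratio scaling and 0.96 without the low libraries. The slope difference of mmu-miR-378a-5p changed sign with median-ratio scaling, to -0.0155 against limb muscle and -0.0005 against SCAT. For single members, 554 other values kept direction and call, 105 lost the call and 5 reversed, and with 1 library left out 116 kept and 33 lost it. At 1 to 4 rpmm, as for miR-455 in limb muscle, few reads limit the precision.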
